A study of Mus musculus with 4 samples.

Results

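The genes described here encode the enzymes of cholesterol synthesis and the proteins that sense, move and export sterols in the liver. They were taken as 28 named mouse genes, and every probe set whose annotation gave exactly 1 symbol equal to one of them was used, 53 of the 45101 probe sets on the arrays. Such probe sets were found for 26 of the genes. Acat2, a cytosolic thiolase, and Soat2, which esterifies cholesterol, had none and were not analysed here. Of the 26, 25 genes reached 4 (log2), the level taken here as the lower limit of measurement, on at least 1 array, as 8650 of all 18194 genes did. Npc1l1, a sterol uptake protein, was at 2.29 (clodronate) and 2.17 (PBS) on the high-fat diet and at 2.16 and 2.35 on the low-fat diet, so no difference could be measured for it.

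The data were 4 single-colour arrays of liver RNA from male C57BL/6J mice that were 8 to 12 weeks old when the diets began. The groups were high-fat diet with clodronate (RNA of 10 mice), high-fat diet with PBS (10 mice), low-fat diet with clodronate (8 mice) and low-fat diet with PBS (8 mice), each pooled into 1 sample and hybridised to 1 array. The diets ran for 20 weeks with 45% or 10% of energy from fat, palm oil having replaced lard in both, and the mice were injected into the peritoneal cavity 2 times in the last week. Clodronate was given in liposomes, which kill phagocytes such as Kupffer cells, the macrophages of the liver, and the control injection is given as phosphate-buffered saline (PBS), with no mention of liposomes. Liposomes, clodronate and loss of macrophages therefore cannot be told apart. The spread between mice was not measured, so no difference between single arrays could be set against a replicate error. Tests were made of the injection averaged over the diets and of the diet averaged over the injections. With 1 array per group, the number of arrays limits the precision.

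Cholesterol is built from acetyl-CoA through mevalonate, isoprenoid phosphates, squalene and lanosterol, and the liver is a main site of this synthesis. Its genes are switched on together by SREBP2, a transcription factor held in the endoplasmic reticulum with its escort SCAP by the INSIG proteins while membranes are rich in sterol, and released for cleavage in the Golgi when sterol is scarce. Hepatocytes store cholesterol as esters and release it as bile acids, in lipoproteins, or through the ABCG5 and ABCG8 half-transporters into bile.

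The 3 members that passed the test below were Pmvk, Fdps and Msmo1. The promoter table of RefSeq on GRCm38.p6, which gives 250 bases before and 50 bases after a start site, held windows for Pmvk and Msmo1 and for 23 of the 28 genes in all. Shown in capitals are matches, on either strand, to the CCAAT box (CCAAT, bound by NF-Y) and the Sp1 box (GGGCGG), motifs that are known to accompany sterol regulatory elements. The windows are given because these genes passed the test. Direction played no part in the choice, and a link of the matches to the diet differences was not tested.
Msmo1, minus strand, chr8:64733529-64733828: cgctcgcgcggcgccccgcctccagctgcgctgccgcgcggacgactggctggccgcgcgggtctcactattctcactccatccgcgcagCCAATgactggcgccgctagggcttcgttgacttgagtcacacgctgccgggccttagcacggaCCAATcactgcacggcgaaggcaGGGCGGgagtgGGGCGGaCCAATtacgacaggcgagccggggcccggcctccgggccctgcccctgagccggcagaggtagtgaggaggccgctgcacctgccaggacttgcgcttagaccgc
Pmvk, plus strand, chr3:89454291-89454590: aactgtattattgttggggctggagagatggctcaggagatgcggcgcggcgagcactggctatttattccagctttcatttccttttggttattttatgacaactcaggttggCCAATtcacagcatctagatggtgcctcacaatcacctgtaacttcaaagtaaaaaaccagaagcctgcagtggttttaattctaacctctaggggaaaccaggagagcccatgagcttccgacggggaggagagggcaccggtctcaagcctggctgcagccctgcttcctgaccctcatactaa
The Msmo1 window held 5 such matches and the Pmvk window 1, and a further Pmvk window held 0. Of the 30 windows of the members, 21 (70%) held CCAAT and 22 (73.3%) held GGGCGG, against 37.4% and 35.7% of all 32851 windows in the table. The sterol regulatory element, searched as TCACNCCAC on both strands, was found in 1 of the 30 windows (3.33%), against 1.24% of all windows. That match, TCACCCCAC, lies in the window of Hmgcs1 at chr13:119690101-119690400 on the plus strand. No match of different motifs overlapped another among the members. Abcg5 and Abcg8 are neighbours on opposite strands, and their windows share 209 bases at chr17:84682962-84683170. A CCAAT match in these shared bases is counted in both windows, as is a GGGCGG match in the overlapping Scap windows. Windows were counted in the same way over the whole promoter table. Such matches describe the letters and do not show binding.

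No sterol gene passed the test between the livers of clodronate-injected and PBS-injected mice, and most differences were small. Averaged over the diets, 0 of the 25 members rose and 0 fell (limma with Benjamini-Hochberg adjustment at 0.05 over 8650 genes), where 0.116% of all genes tested rose and 0.971% fell. At an unadjusted p under 0.05 the count was 1 of 25, where 4.74% of all genes were counted (1.61% higher and 3.13% lower), and the one was Mvd, which was lower. The averaged differences lay between -0.67 for Mvd and 0.20 for Pmvk on the log2 scale. For 24 members the 95% interval of the averaged difference lay inside a 1.5-fold change in either direction, and for Mvd it reached beyond. These intervals come from the departure of the arrays from additive effects of diet and injection, moderated by other genes. They do not measure replicate error and do not cover the spread between mice. The members had a median difference of 0.03 on the high-fat diet, beside -0.05 for all genes, and of 0.04 on the low-fat diet, beside 0.04. By role, all 4 sterol sensing genes lay lower with clodronate on both diets, with medians of -0.10 on the high-fat and -0.05 on the low-fat diet, and none of them passed. Of all 8650 genes, 5300 lay lower on the high-fat and 3363 on the low-fat diet. After centring of each array on its median 2 of the 4 lay higher on the high-fat diet, and after quantile normalization 1 did. Of the 8 genes from lanosterol to cholesterol, 6 lay higher with clodronate on the high-fat and 8 on the low-fat diet, with medians of 0.05 and 0.06, and centring of each array gave 8 and 7. Of all genes, 3147 lay higher on the high-fat and 5161 on the low-fat diet.

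Mvd, mevalonate diphosphate decarboxylase, which makes isopentenyl diphosphate, had the largest clodronate difference among the members. Its level was 5.69 on the high-fat and 5.59 on the low-fat array with clodronate, against 6.29 and 6.32 with PBS (log2). Both clodronate arrays were thus below both PBS arrays. The mean difference was -0.67 ± 0.09 (SD over the pair of diets, n = 2), but it did not pass in limma (Benjamini-Hochberg adjusted p = 0.25). The dimmer probe set of Mvd differed by -0.31 on the high-fat diet and by -0.90 on the low-fat diet. Mvd was the 1 member lower by 1.5-fold or more on the low-fat diet, where 1.63% of all genes were, and also on the high-fat diet, where 2.98% were. The high-fat count became 0 after centring of each array, quantile normalization or averaging of probe sets. Higher by that fold were 0 members on either diet, where 0.636% of all genes were on the high-fat and 1.75% on the low-fat diet. A fold of 2 was reached by 0 members in either direction, where on the low-fat diet 0.22% of all genes were higher and 0.705% lower, and on the high-fat diet 0.0925% higher and 0.809% lower. At 1.5-fold on the high-fat diet, 55 of all genes were higher and 258 lower, a split that became 81 and 189 after centring of each array and 102 and 162 after quantile normalization. Abcg5 was the 1 member with both clodronate arrays above both PBS arrays, by 0.13 on the high-fat and 0.07 on the low-fat diet, and the count became 3 after centring, quantile normalization or averaging of probe sets. Such a gap was seen upward in 11.3% and downward in 13.2% of all genes.

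Macrophage markers moved with clodronate. The summed linear level of the 16 Kupffer cell and macrophage markers was 831 and 731 on the high-fat and low-fat arrays with clodronate, against 8372 and 9081 with PBS. Of these, 9 and 10 were below 4 with clodronate, against 2 and 0 with PBS, and Clec4f, a Kupffer cell lectin, was at 1.88 and 1.92 against 9.42 and 9.40. Their part in the Mvd difference was not tested, and in whole liver RNA fewer cells of a type and less RNA per cell cannot be told apart. All 11 hepatocyte markers with a probe set were at 4 or more on every array, and their summed level stayed between 158529 and 162562, with 0 called for clodronate or diet. Of 10 sinusoidal endothelial, 9 stellate cell and 1 cholangiocyte marker genes tested, 0 were called. Over all genes 0.116% rose and 0.971% fell with clodronate, and 0.867% rose and 0.821% fell with diet. Counts of 0 in marker lists this short are near those shares. With clodronate the endothelial markers ranged from -0.50 (Pecam1) to 0.44 (Lyve1), the stellate markers from -0.57 (Lum) to 0.27 (Col3a1), and Sox9 of cholangiocytes was at -0.41. Of 5 enterocyte marker genes with a probe set, 3 were below 4 on every array and 2 were tested. Of these 2, Apoa4 fell with clodronate by 0.37 and Fabp2 rose with diet by 0.47 (limma, Benjamini-Hochberg adjusted p = 0.0273 and 0.012). The medians of the arrays over the genes tested lay between 7.34 on the high-fat clodronate array and 7.44 on the low-fat clodronate array.

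**Figure D1:**
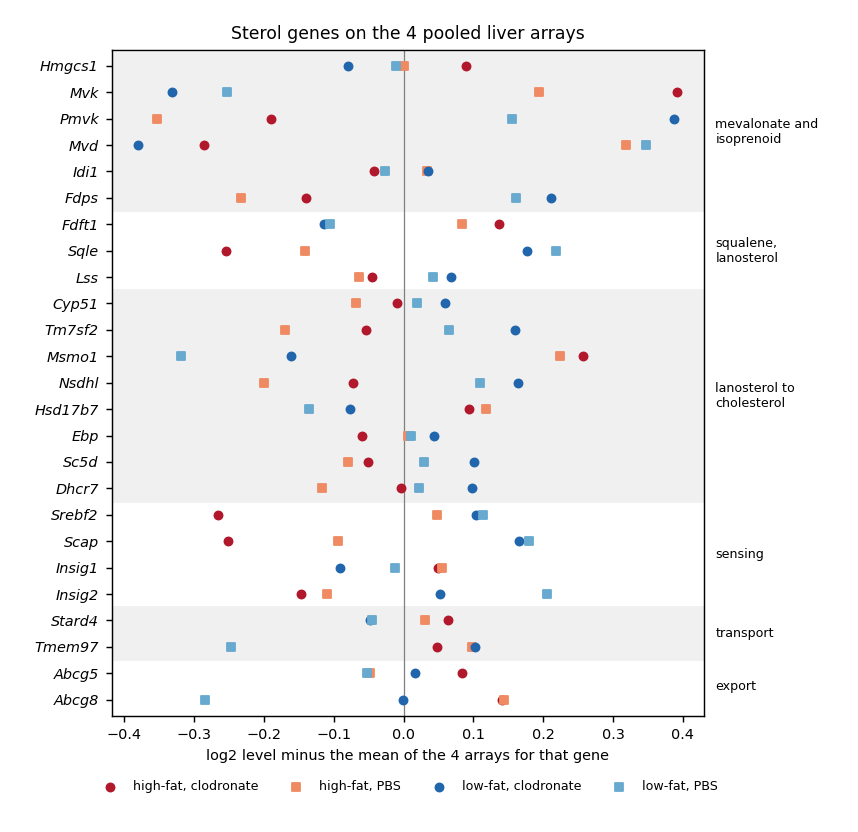
Log2 level of each of the 25 sterol genes on each pooled liver array, minus the mean of that gene over the 4 arrays, with genes ordered by role and 1 point per array. For Mvd both clodronate arrays lie left of both PBS arrays, while for Pmvk, Fdps and Sqle both high-fat arrays lie left of both low-fat arrays and for Msmo1 right of them.

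The diet separated the arrays in more of the sterol genes, in both directions and by small amounts. Averaged over the injections, Msmo1 rose and Pmvk and Fdps fell on the high-fat diet, 1 and 2 of 25 members (limma with Benjamini-Hochberg adjustment), where 0.867% of all genes rose and 0.821% fell. Over all genes 75 rose and 71 fell, a split that became 107 and 58 after centring of each array. At an unadjusted p under 0.05 there were 4 members higher and 7 lower, where 5.56% of all genes were higher and 7.63% lower. In 8 members both high-fat arrays were above both low-fat arrays, where 16.4% of all genes were, and in 13 members both were below, where 29.5% of all genes were. The 3 calls depended on the settings. With eBayes without the mean-dependent prior, 0 members and 0 genes at all passed for diet, and the adjusted p over the alternatives ranged up to 0.356 for Msmo1, 0.343 for Pmvk and 0.588 for Fdps. The Fdps value came with the mean of probe sets, which for this gene took in a probe set below 4 on every array.

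The sizes were modest. Of the 25 members 0 differed by 1.5-fold or more between the diets with PBS, where 2.15% of all genes were higher and 1.47% lower. With clodronate 1 member, Mvk, was higher by that fold, where 1.69% of all genes were, and 0 were lower, where 4.79% were. A fold of 2 was reached by 0 members with PBS, where 0.335% of all genes were higher and 0.335% lower, and by 0 with clodronate, where 0.358% were higher and 0.74% lower. With clodronate the counts of all genes at 1.5-fold, 146 higher and 414 lower, became 229 and 254 after centring and 240 and 220 after quantile normalization. The high-fat clodronate array had a median 0.10 lower than the low-fat clodronate array over the genes tested. The median member difference was -0.03 with PBS and -0.08 with clodronate, beside 0 and -0.08 for all genes. In 22 of the 25 members the difference had the same sign with both injections, 2 comparisons that share no array, as in 56.6% of all genes. For clodronate it had the same sign on both diets in 16 members and in 43.7% of all genes.

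**Figure D2:**
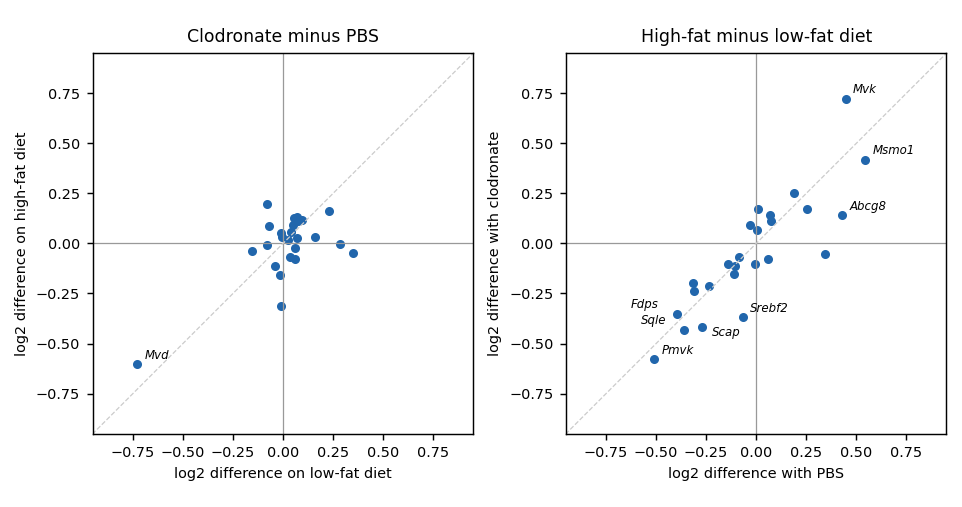
Log2 differences of the 25 sterol genes, clodronate minus PBS on the high-fat diet against the low-fat diet (left) and high-fat minus low-fat diet with clodronate against PBS (right), 1 point per gene, with the dashed line marking equal differences. On the left Mvd lies apart at -0.60 and -0.73, and on the right Mvk and Msmo1 lie at the upper end and Pmvk at the lower end.

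Among the genes of the mevalonate and isoprenoid steps, Pmvk and Fdps fell on the high-fat diet. Pmvk, phosphomevalonate kinase, was at 8.83 (clodronate) and 8.67 (PBS) on the high-fat diet, against 9.41 and 9.18 on the low-fat diet. The diets did not overlap, and the mean difference was -0.54 ± 0.05 (SD over the pair of injections, n = 2; limma, Benjamini-Hochberg adjusted p = 0.0273), or 1.46-fold. Fdps, farnesyl diphosphate synthase, was at 11.05 (clodronate) and 10.96 (PBS) on the high-fat diet, against 11.40 and 11.35 on the low-fat diet. It fell by 0.37 ± 0.03 (SD, n = 2; limma, Benjamini-Hochberg adjusted p = 0.032), 1.29-fold, again with no overlap between the diets.

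Mvk, mevalonate kinase, which acts just before Pmvk, lay the other way. Its level was 5.31 (clodronate) and 5.12 (PBS) on the high-fat diet, against 4.59 and 4.67 on the low-fat diet, so that both high-fat arrays were higher. The mean difference of 0.59 ± 0.20 (SD, n = 2) was the largest of any member but did not pass (limma, Benjamini-Hochberg adjusted p = 0.255), at a level not far above the limit of 4. The dimmer Mvk probe set differed by -0.25 between the diets with clodronate and by 0.87 with PBS, and its arrays overlapped between the diets. With the mean of both probe sets Mvk did not reach 1.5-fold with clodronate. Hmgcs1, the cytosolic HMG-CoA synthase, was at 12.29 and 12.21 on the high-fat diet, against 12.12 and 12.19 on the low-fat diet, a mean difference of 0.09. Idi1, isopentenyl diphosphate isomerase, varied by 0.08 over the 4 arrays in the probe set used and by 0.28 in the other. Mvd differed by 0.03 between the diets on average.

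In the squalene and lanosterol steps the members differed in direction. Sqle, squalene epoxidase, an oxygen-dependent step known to limit the rate of sterol synthesis, was at 8.00 (clodronate) and 8.11 (PBS) on the high-fat diet, against 8.43 and 8.47 on the low-fat diet. The diets did not overlap, and the mean difference was -0.40 ± 0.05 (SD, n = 2; limma, Benjamini-Hochberg adjusted p = 0.149), which did not pass. Fdft1, squalene synthase, was at 10.71 and 10.65 on the high-fat diet, against 10.46 and 10.47 on the low-fat diet. Its mean difference was 0.22 ± 0.04 (SD, n = 2; limma, Benjamini-Hochberg adjusted p = 0.247). Fdft1 thus lay higher on both high-fat arrays, between Fdps and Sqle in the pathway, both of which lay lower. Lss, lanosterol synthase, differed by -0.11 with each injection.

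Between lanosterol and cholesterol Msmo1 stood out upward. Msmo1, the sterol C4-methyl oxidase, was at 10.83 (clodronate) and 10.80 (PBS) on the high-fat diet, against 10.41 and 10.25 on the low-fat diet. It rose by 0.48 ± 0.09 (SD, n = 2; limma, Benjamini-Hochberg adjusted p = 0.0159), 1.40-fold, and the diets did not overlap. Its dimmer probe set was at 4.12 and 4.08 on the high-fat diet, against 3.57 and 3.55 on the low-fat diet, and so lay at the limit of 4.

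Nsdhl, a sterol dehydrogenase that acts with Msmo1 in removing the C4 methyl groups, lay the other way. It was at 9.63 and 9.50 on the high-fat diet, against 9.86 and 9.81 on the low-fat diet, a mean difference of -0.27 ± 0.05 (SD, n = 2; limma, Benjamini-Hochberg adjusted p = 0.21). Hsd17b7, the keto-reductase of the same reaction sequence, was at 8.94 and 8.96 on the high-fat diet, against 8.77 and 8.71 on the low-fat diet, a mean difference of 0.21 (limma, Benjamini-Hochberg adjusted p = 0.421). The members of this C4-demethylation step therefore did not share a direction, and 1 of the 3 passed. Tm7sf2, a sterol C14 reductase, was at 10.00 and 9.89 on the high-fat diet, against 10.22 and 10.12 on the low-fat diet, a mean difference of -0.22 (limma, Benjamini-Hochberg adjusted p = 0.276). Dhcr7, which reduces 7-dehydrocholesterol to cholesterol, differed by -0.12. Sc5d, a sterol desaturase, differed by -0.13, Cyp51, the lanosterol demethylase, by -0.08, and Ebp, a sterol isomerase, by -0.05. In these 5 genes both high-fat arrays lay below both low-fat arrays by the brightest probe set, without passing the test. Such a gap was seen in 29.5% of all genes. Over the 8 genes from lanosterol to cholesterol, the median diet difference with clodronate moved from -0.10 to -0.0014 after centring of each array. With PBS that median was -0.10 before and after centring. The other Cyp51 probe set that reached the limit of measurement differed by 0.04, and the other Sc5d probe sets by 0.02 and 0.14. In each of these other probe sets the arrays of the diets overlapped.

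**Figure D3:**
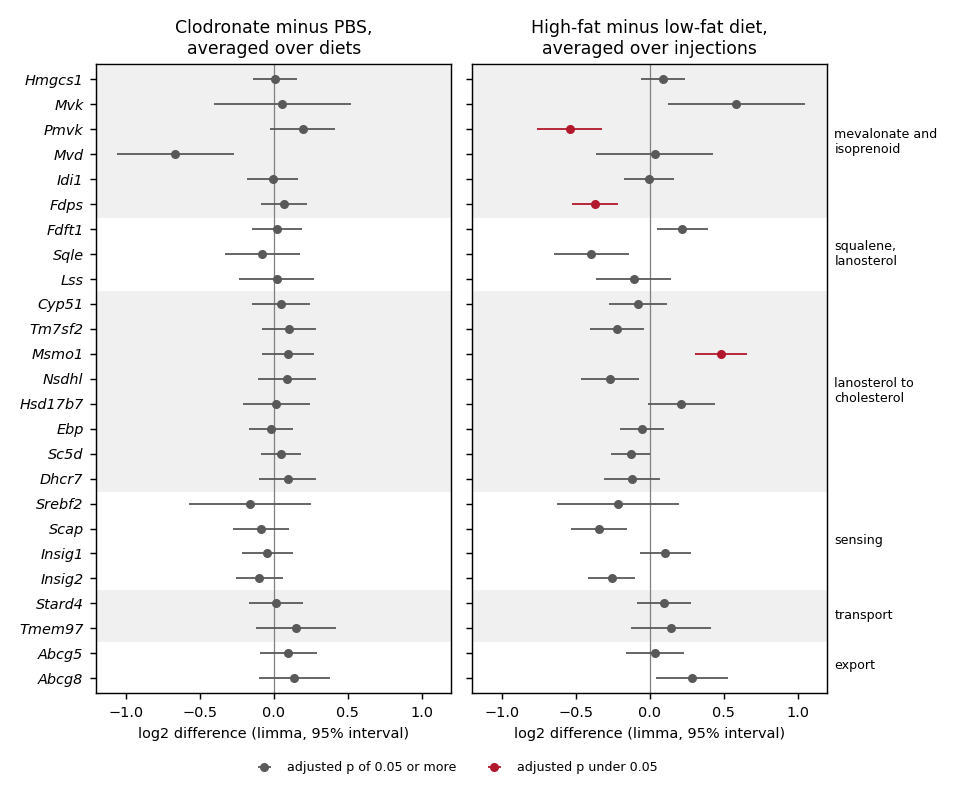
Averaged log2 differences of the 25 sterol genes with their 95% intervals from limma, for clodronate minus PBS (left) and high-fat minus low-fat diet (right), in red where the adjusted p was under 0.05. On the left 0 members are red and Mvd lies lowest at -0.67, and on the right Msmo1 is red at 0.48 and Pmvk and Fdps are red at -0.54 and -0.37.

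Of the sterol sensing genes none passed. Scap, the escort of SREBP2, came closest. It was at 9.79 (clodronate) and 9.95 (PBS) on the high-fat diet, against 10.21 and 10.22 on the low-fat diet, a mean difference of -0.34 ± 0.10 (SD, n = 2; limma, Benjamini-Hochberg adjusted p = 0.096) with no overlap. Insig2, which retains the SCAP complex and in mouse liver is known to be repressed by insulin, was at 11.09 and 11.12 on the high-fat diet, against 11.29 and 11.44 on the low-fat diet. Its mean difference was -0.26 ± 0.08 (SD, n = 2; limma, Benjamini-Hochberg adjusted p = 0.137), and its other 2 probe sets differed by -0.19 and -0.21. Insig1, its paralog and a target of SREBP, was at 10.56 and 10.57 on the high-fat diet, against 10.42 and 10.50 on the low-fat diet, a mean difference of 0.10. Srebf2, which encodes SREBP2, was at 5.60 and 5.91 on the high-fat diet, against 5.96 and 5.97 on the low-fat diet by the brighter probe set. The dimmer one pointed the other way, at 5.64 and 5.96 on the high-fat diet, against 5.46 and 5.58 on the low-fat diet, so the array gave no single direction for Srebf2.

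Sterol carriers and exporters showed small differences. Abcg8 was at 9.22 on both high-fat arrays, against 9.07 (clodronate) and 8.79 (PBS) on the low-fat diet, a mean difference of 0.29 ± 0.20 (SD, n = 2; limma, Benjamini-Hochberg adjusted p = 0.291). Its partner Abcg5 was at 9.83 and 9.70 on the high-fat diet, against 9.76 and 9.69 on the low-fat diet, and these overlapped. Stard4, a cytosolic sterol carrier, differed by 0.09 on average. Tmem97, a sterol-responsive membrane protein that binds NPC1, was at 8.84 and 8.89 on the high-fat diet, against 8.90 and 8.55 on the low-fat diet, where the low-fat PBS array alone was low. The clodronate difference of Tmem97 was therefore -0.05 on the high-fat and 0.35 on the low-fat diet. Whether the diets differ in this was not tested, since 4 arrays leave no degree of freedom for it.

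Several genes had probe sets that disagreed. Of the 13 members with several probe sets at 4 or more, all probe sets pointed in 1 direction in 7 genes for clodronate and in 6 for diet. The spread between probe sets of a gene had a median of 0.09 for clodronate and 0.16 for diet, and was largest at 0.79 for clodronate in Hsd17b7 and at 0.50 for diet in Srebf2. Most averaged differences of the members were of that order. Mvd for clodronate and Insig2 for diet were among the genes whose probe sets shared a direction.

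**Figure D4:**
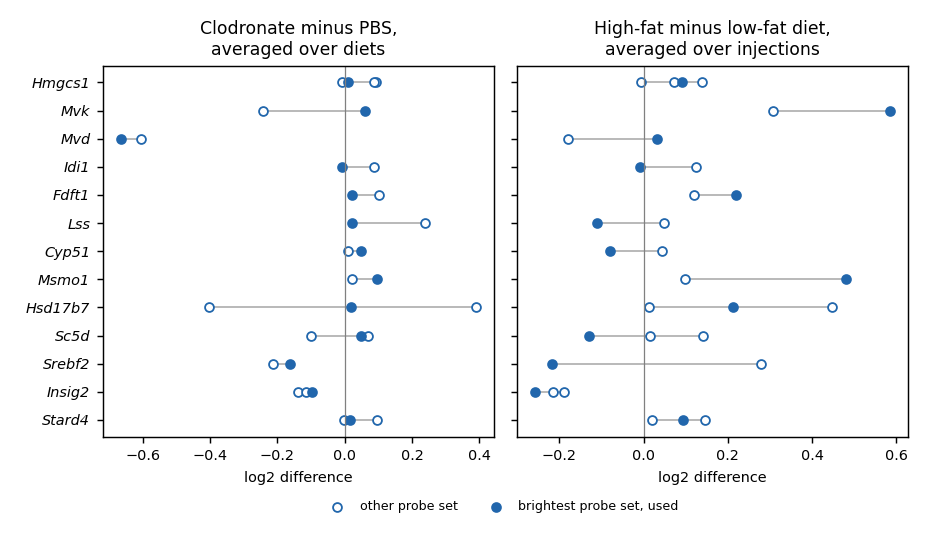
Averaged log2 differences of every probe set at 4 or more for the 13 sterol genes with several of them, clodronate minus PBS (left) and high-fat minus low-fat diet (right), with values below 4 set to 4 and the probe set used for the gene filled. The probe sets of Mvd lie together at -0.60 and -0.67 for clodronate, while those of Hsd17b7 spread by 0.79.

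Many genes of fatty acid synthesis, which is largely under SREBP1, fell with diet. Of 14 such genes 8 fell on the high-fat diet (limma with Benjamini-Hochberg adjustment), where 0.821% of all genes fell, and 0 rose, with a median of -0.49 against -0.05 for the sterol genes and -0.04 for all genes. Elovl6, a fatty acid elongase, was at 9.69 (clodronate) and 9.69 (PBS) on the high-fat diet, against 10.95 and 10.89 on the low-fat diet, and fell by 1.23 ± 0.05 (SD, n = 2; limma, Benjamini-Hochberg adjusted p = 0.000161). Acacb, which makes malonyl-CoA, fell by 1.29 and Acaca, the other acetyl-CoA carboxylase, by 1.07. Without the mean-dependent prior 0 of the 14 passed. No test of the difference between these lists was made.

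Other genes next to the sterol pathway mostly did not pass. At the same threshold 0.867% of all genes rose and 0.821% fell with diet, and 0.116% rose and 0.971% fell with clodronate, so counts of 0 in lists of this size are near those shares. Rnf145, a ubiquitin ligase of the endoplasmic reticulum, was at 8.20 (clodronate) and 8.41 (PBS) on the high-fat diet, against 8.85 and 9.03 on the low-fat diet. It fell by 0.64 ± 0.02 (SD, n = 2; limma, Benjamini-Hochberg adjusted p = 0.0171) as 1 of 7 genes of SREBP processing and degradation. Pltp, which transfers phospholipid between lipoproteins, fell by 0.57 on the high-fat diet and by 0.39 after clodronate (limma, Benjamini-Hochberg adjusted p = 0.005 and 0.0418), 1 of 10 genes of the liver X receptor and cholesterol efflux list. In the same list Srebf1 was higher on the high-fat diet by 0.32 without passing (limma, Benjamini-Hochberg adjusted p = 0.0975). For diet 0 of 9 genes of other isoprenoid branches, 0 of 4 of ketone synthesis, 0 of 12 of bile acid synthesis, 0 of 11 of lysosomal and vesicular sterol traffic and 0 of 4 electron donors passed, and 0 of these passed for clodronate.

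**Figure D5:**
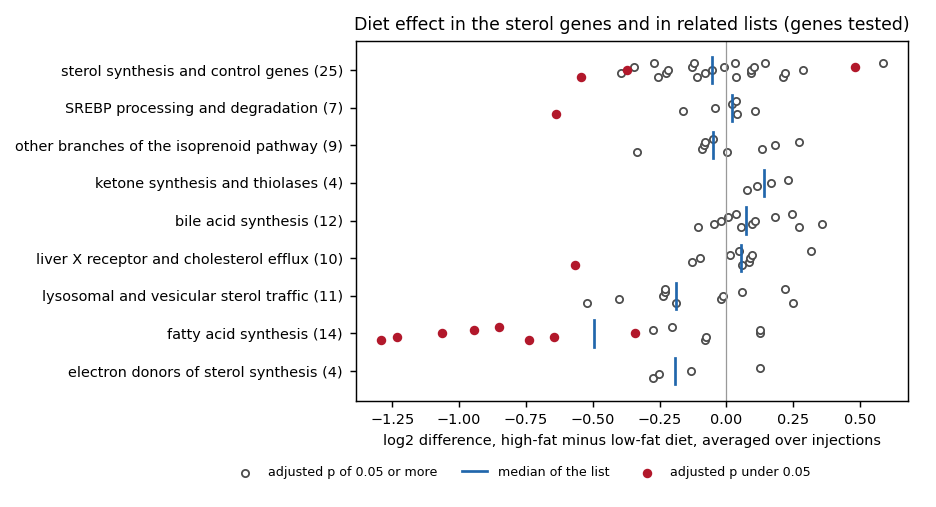
Log2 difference of each gene, high-fat minus low-fat diet averaged over injections, in the sterol genes and in lists of related genes, in red where the adjusted p in limma was under 0.05, with a blue bar at the median of each list. The fatty acid synthesis genes extend down to -1.29 with a median of -0.49, while the sterol genes lie between -0.54 and 0.59 with a median of -0.05.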

How the data were processed

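The authors deposited log2 expression values of 45101 probe sets. The submitters' processing notes name GCRMA 2.24.1, a method that corrects background by probe sequence and normalizes between arrays. Per the labels' protocols, RNA with an integrity number above 8.0 was pooled in equal amounts per animal, and 5 µg were labelled per array. Scanner files were not used here. Gene symbols came from the array platform's annotation table, and all 53 member probe sets matched the RefSeq gene table by Entrez identifier with 0 changed symbols. Each gene was read from its brightest single-symbol probe set, by the average of all 4 arrays. For single-array differences, counted at 1.5-fold, values under 4 were raised to 4. Averaged effects were tested with limma 3.58.1 (R 4.3.3) in an additive model of diet and injection over 8650 genes, with a mean-dependent prior in eBayes, 1 residual and 8.46 prior degrees of freedom, and Benjamini-Hochberg adjustment. With 1 pool per group, its error is the departure of the 4 arrays from additive effects, moderated by the spread of other genes. Any real dependence of the injection effect on diet therefore counts as error. The p-values say nothing of the mice within the pools. The fit was also run on simulated data with additive clodronate shifts and no diet effect, so that run does not bear on the diet calls. The members, lists and tests were chosen with earlier results of these data known. All members are named, and at most 4 genes with the largest averaged difference of each other list. Alternatives changed the floor, filter, prior, probe set rule, scaling and fold. Figures and summaries used Python 3.11.15, pandas 2.3.3 and matplotlib 3.10.9.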

Additional observations from a re-analysis of the deposited data

Results flagged for a closer look

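Dimmer probe sets of 2 members went in opposite directions on the 2 diets, each by 1.2-fold or more. The difference between the diets was not tested, and each value compares single arrays. For Hsd17b7, the dimmest of 3 probe sets at 4 or more was at 4.62 with clodronate and 5.72 with PBS on the high-fat diet, a difference of -1.10, and at 5.31 with clodronate and 5.01 with PBS on the low-fat diet, a difference of 0.30. Read by diet, the same probe set differed by -0.69 with clodronate and by 0.71 with PBS. The brightest Hsd17b7 probe set differed by -0.02 and 0.06 after clodronate on the high-fat and low-fat diets. For Mvk, the dimmer probe set was at 4.14 with clodronate and 4.95 with PBS on the high-fat diet, a difference of -0.80, and at 4.40 and 4.08 on the low-fat diet, a difference of 0.32. The brighter Mvk probe set differed by 0.20 and -0.08.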

How the results depend on the processing

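Clodronate gave 0 members under each of the 8 alternatives to the averaged test, and the adjusted p of Mvd ranged from 0.228 to 0.587. For diet, the 1 member that rose became 0, and the 2 that fell became 0, when values below 4 were set to 4, without the mean-dependent prior, with the mean of all probe sets of a gene, with every probe set as its own feature and without a filter on low values, and centring left 1 that fell. With only genes at 4 or more on all 4 arrays and with quantile normalization all 3 passed. The cause of the lost calls was not tested. The number of features stayed at 8650 with values below 4 set to 4 and without the mean-dependent prior. It was 7490 with the mean of probe sets, 14343 with every probe set and 18194 without the filter. At 2-fold, Mvd on each diet and Mvk no longer counted, leaving 0. Mvd on the high-fat diet also became 0 with the mean of probe sets, centring and quantile normalization, and Mvk with clodronate became 0 with a floor of 5 and with the mean of probe sets, which gave 1 member higher with PBS instead. Centring moved the median member difference between the diets with clodronate to 0.0238. In alternatives chosen after seeing the data, the clodronate arrays lay above the PBS arrays without overlap in 3 members under the mean of probe sets, centring and quantile normalization, and below in 3 under the mean of probe sets, and the high-fat arrays lay below in 8 under the mean of probe sets. Some averaged differences changed sign with the mean of probe sets. By the brightest probe set the largest of these were the diet differences of Srebf2 (-0.22), Sc5d (-0.13) and Lss (-0.11). With the mean of probe sets the clodronate values were Mvk (-0.0926), Idi1 (0.0394) and Cyp51 (-0.0723). The diet values with that mean were Mvd (-0.0738), Idi1 (0.0584), Lss (0.0578), Sc5d (0.00836) and Srebf2 (0.0309). That mean also took in probe sets below 4 on every array, as in Cyp51, Lss and Fdps. Both Cyp51 probe sets at 4 or more lay above 0 for clodronate (0.0492 and 0.0087). Centring turned Idi1 (0.00922 for clodronate and 0.0403 for diet) and Ebp (7.25e-06 for clodronate). Of the 8 fatty acid synthesis genes that fell, the mean of probe sets left 5. Over all genes the averaged clodronate calls, 10 higher and 84 lower, ranged over the alternatives between 0 and 9 and between 30 and 70, and the diet calls, 75 higher and 71 lower, between 0 and 107 and between 0 and 58. The single-array counts of all genes at 1.5-fold ranged over the alternatives, 2-fold included, between 8 and 102 higher and 70 and 323 lower for clodronate on the high-fat diet, 19 and 188 higher and 61 and 170 lower on the low-fat diet, 31 and 240 higher and 64 and 500 lower for diet with clodronate, and 29 and 222 higher and 29 and 153 lower with PBS. No paired analysis was possible because each group has 1 array and no replicate numbers. Each group being 1 pool on 1 array limits every value, and for Mvk, Mvd and Srebf2 the signal lies within 3 log2 units of the limit of 4.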

Other observations

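Cyp7a1, which starts bile acid synthesis from cholesterol, differed between single arrays by more than its averages show. It was at 9.16 with clodronate and 9.89 with PBS on the high-fat diet, and at 9.48 with clodronate and 8.85 with PBS on the low-fat diet. The averaged differences were -0.05 for clodronate and 0.36 ± 0.96 (SD of 2 differences, n = 2) for diet, and neither passed in limma. Hsd17b4 and Acox2, peroxisomal enzymes of bile acid side-chain shortening, were higher by 0.27 and 0.25 on the high-fat diet without passing. Of the electron donors, Cyb5r3, which reduces cytochrome b5 for sterol desaturation, was at 12.24 (clodronate) and 12.22 (PBS) on the high-fat diet, against 12.45 and 12.51 on the low-fat diet, and did not pass.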
